A study of Oryctolagus cuniculus with 6 samples.

Results

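The genes described here encode the ADAM and ADAMTS metallopeptidases and the related ADAMTS-like proteins of the rabbit. They were chosen by name alone, as every array probe whose description contains "ADAM metallopeptidase" or "ADAMTS". This gave 42 of 43603 probes, which stand for 20 of the 23410 genes and unnamed transcripts on the array. Each gene was read from its brightest probe. Of the 20 genes, 18 exceeded background clearly on 3 or more arrays and were tested, 15 of them on all 6. ADAM28 and ADAMTS16 passed on 1 array each and were left out of the tests. Just inside the filter lay ADAM21-like and ADAMTS12, above background on 4 arrays, and ADAMTS13, above background on 5. A further 11 genes of the family carry descriptions in other words, among them ADAM9, ADAM10, ADAM12 and ADAMDEC1, and are given separately. No probe was named ADAM8, ADAM17, ADAMTS1, ADAMTS2 or ADAMTS14 here.

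ADAM proteins are anchored in the cell membrane by a transmembrane segment and combine a protease domain with a disintegrin domain; the active ones release the outer parts of cytokines, growth factors and receptors from the cell surface. ADAMTS proteases are secreted, carry thrombospondin repeats that tether them to the matrix, and cut proteoglycans, procollagens and von Willebrand factor. ADAMTS-like proteins keep the repeats but lack the protease domain and are found in the matrix with fibrillin microfibrils.

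RNA came from newly formed tissue in skull defects of New Zealand White rabbits, all male and aged 4 months. The series' design text also mentions blood samples, and the labels do not say whether blood entered any array. Per the labels, 24 rabbits each had 4 round holes of 5 mm in the parietal bone; the right-hand pair received HPD (0.2 g), human particulated dentin, a ground tooth material used as bone graft, and the others were left unfilled as controls. One microarray was made for each treatment on days 3, 5 and 7, so that 2 treatments and 3 days give 6 arrays with 1 array per group. The labels do not say how many animals stand behind an array, and the unfilled holes lay in animals that also carried HPD. All levels are log2 of the processed spot intensity minus the 75th percentile of that array, so that 0 is that percentile; a level shows nothing about one probe against another.

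All 6 arrays correlated at 0.938 to 0.984 over the features tested, 78.1% to 86.4% of spots were well above background and 0 were saturated. The bone and fibrous tissue genes COL1A1, COL3A1, POSTN, RUNX2, SP7 and SPP1 were above background on every array. Both day 3 arrays lay on one slide and the 4 arrays of days 5 and 7 on another, so the difference between day 3 and the later days and the difference between slides cannot be told apart. Filled and unfilled defects were compared within a day, and so within a slide. In tissue RNA, fewer cells of a type and less RNA per cell cannot be told apart either.

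The sequences of probes of 60 bases for ADAM19, ADAMTSL1, ADAMTS9, ADAMTS17, ADAMTS5 and ADAMTS18 follow as deposited, 5′ to 3′. They are shown because they say which part of each transcript was measured. Positions are those of the array design on oryCun2. ADAM19 was read at chr3:38929276-38929335, minus strand. The probe for ADAMTS9 lay at chr9:31633301-31633360, minus strand. No position was listed for that of ADAMTS17. ADAMTSL1 had 2 probes far apart in the gene, at chr1:35018015-35018071 and chr1:35234296-35234355, both minus strand, which start at bases 5232 and 1758 of its transcript.
ADAM19: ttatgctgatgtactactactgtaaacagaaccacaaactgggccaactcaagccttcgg
ADAMTSL1, base 5232: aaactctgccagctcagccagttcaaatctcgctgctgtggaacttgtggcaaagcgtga
ADAMTSL1, base 1758: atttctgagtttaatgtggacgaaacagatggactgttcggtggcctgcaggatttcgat
ADAMTS9: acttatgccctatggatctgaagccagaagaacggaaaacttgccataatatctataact
ADAMTS17: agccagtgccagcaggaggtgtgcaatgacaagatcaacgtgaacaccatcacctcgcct

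ADAMTS5 had 1 probe near the end of its coding sequence, at chr14:156132197-156132253 on the minus strand, and 5 tiled probes between 156140707 and 156140770. Neighbouring tiles are shifted by 1 base, so that all 5 share the 56 bases in capitals and measure the same stretch of RNA. For ADAMTS18, 2 of its 5 tiles are shown, again shifted by 1 base, because their levels differed on 1 array; the capitals mark the 55 bases that all 5 share. These tiles span 3611 bases of the genome (chr5:31923127-31926737 for the brightest, minus strand), so they cross a splice junction.
ADAMTS5, base 2736: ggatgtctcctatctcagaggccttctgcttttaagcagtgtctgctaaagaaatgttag
ADAMTS5, base 1877: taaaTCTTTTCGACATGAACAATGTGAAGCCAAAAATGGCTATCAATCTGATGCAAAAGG
ADAMTS5, base 1878: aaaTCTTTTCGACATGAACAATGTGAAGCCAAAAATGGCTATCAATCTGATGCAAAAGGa
ADAMTS5, base 1879: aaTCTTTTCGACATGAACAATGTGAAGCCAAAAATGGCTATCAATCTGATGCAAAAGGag
ADAMTS5, base 1880: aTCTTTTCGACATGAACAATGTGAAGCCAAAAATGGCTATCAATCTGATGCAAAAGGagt
ADAMTS5, base 1881: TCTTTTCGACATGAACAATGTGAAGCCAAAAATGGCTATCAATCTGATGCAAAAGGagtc
ADAMTS18, base 3526: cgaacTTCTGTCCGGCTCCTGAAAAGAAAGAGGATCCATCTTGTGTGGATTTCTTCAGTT
ADAMTS18, base 3527: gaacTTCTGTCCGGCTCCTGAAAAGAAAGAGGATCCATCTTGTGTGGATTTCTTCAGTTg

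Across the 6 arrays the family varied about as much as other features. The span from the lowest to the highest array had a median of 0.82 log2 over the 18 genes, against 0.79 over all 20251 features, and was under 1 for 11 of the 18 (61.1%, against 65.3% of all features). It ran from 0.24 for ADAM11 to 2.54 for ADAM19. ADAMTSL1 (1.95) and ADAMTS9 (1.91) followed, then ADAMTS13, ADAMTS6, ADAMTS17 and ADAM21-like between 1.06 and 1.33.

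**Figure D1:**
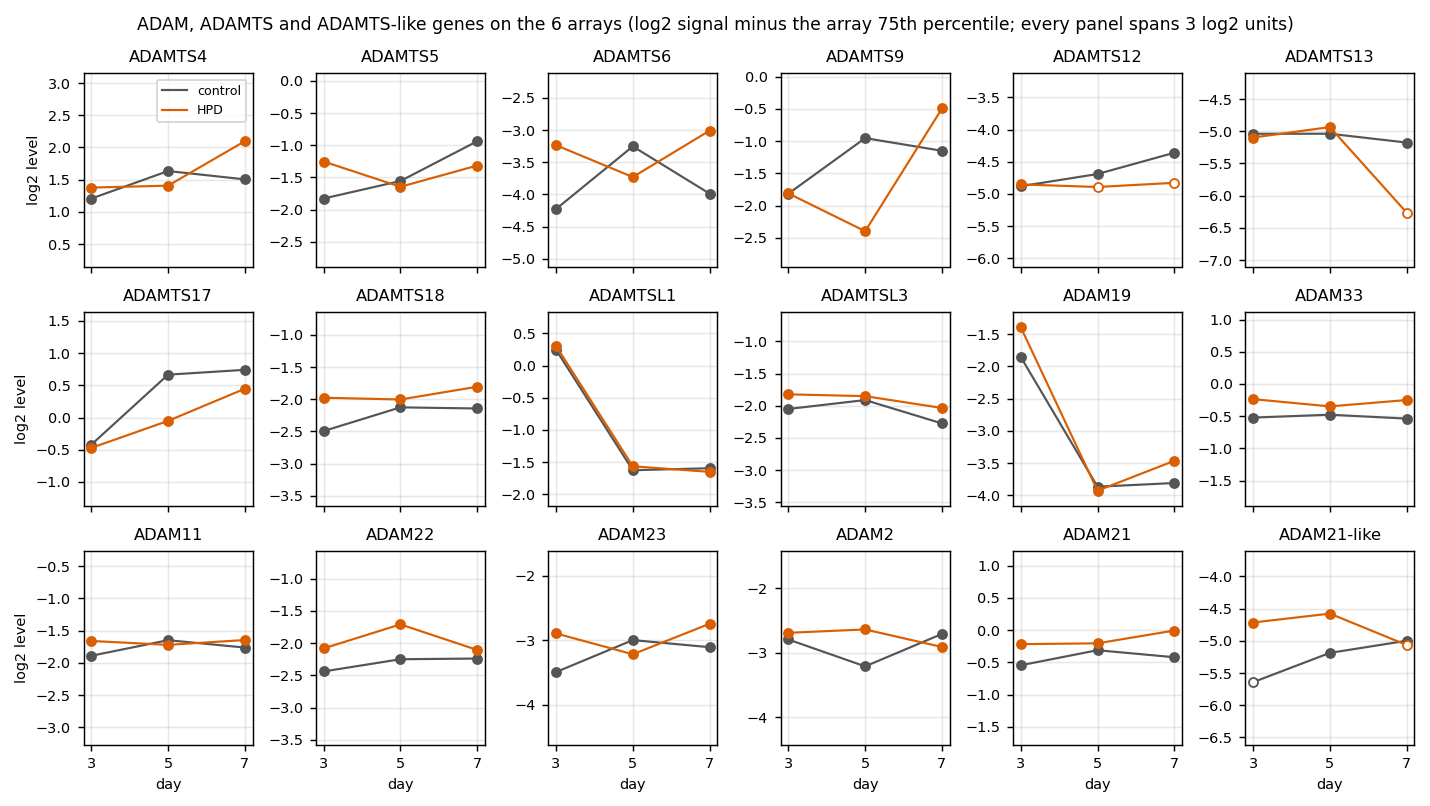
Level of each of the 18 tested genes by day, as log2 signal minus the array's 75th percentile, with 1 array per point, unfilled control defects in grey and HPD in orange. Open points were not well above background; every panel spans 3 log2 units, and the drop of ADAM19 and ADAMTSL1 after day 3 appears in both treatments.

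Time was compared first, to describe the family as the tissue healed. ADAM19 and ADAMTSL1 were high on day 3 and low on both later days, with and without HPD. ADAM19, also called meltrin beta, is a membrane protease known for releasing neuregulins. Its level on day 3 was -1.85 in control and -1.39 in HPD defects, on day 5 it was -3.87 and -3.93, and on day 7 it was -3.81 and -3.46. Neither day 3 array overlapped with any later array. The mean difference, day 7 minus day 3, was -2.02 ± 0.20 (SE from limma over 6 arrays), a level 4.05-fold lower, and day 5 minus day 3 was -2.28 ± 0.20. After adjustment over all features neither passed 0.05 (limma, adjusted p = 0.116 and 0.180). With normexp background correction, which adds an offset to every spot, the day 7 difference was -0.77. The size of this difference thus rests on the background correction (limma, adjusted p 0.0293 to 0.439 over all alternatives).

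ADAMTSL1, also called punctin, is a secreted matrix protein without protease activity. By its brightest probe it stood at 0.25 in control and 0.31 in HPD defects on day 3, at -1.62 and -1.56 on day 5, and at -1.59 and -1.65 on day 7. Day 7 minus day 3 was -1.90 ± 0.16 (limma, adjusted p = 0.116; 0.0113 to 0.439 over all alternatives), 3.73-fold lower, and the treatments differed by at most 0.06 on any day. Its other probe, nearer the start of the transcript, did not show this. There the day 3 levels were -3.25 in control and -2.51 in HPD, those of day 5 -3.18 and -2.90, and those of day 7 -3.20 and -2.81, a mean change of -0.12 from day 3 to day 7. The call on ADAMTSL1 over time therefore depends on the probe, and averaged over both probes it was -1.01.

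Cell type markers moved over the same days. The neutrophil markers measured (5 of 7) were all lower on day 7 than on day 3, at a median of -4.84. Their summed linear level, in units of each array's 75th percentile, was 1432 in control and 515 in HPD on day 3, 213 and 649 on day 5, and 14.9 and 47.0 on day 7. A sum is weighted to the brightest probes. From day 5 to day 7, 3 of the 5 neutrophil markers were higher and 2 lower, at a median of 0.60. All 6 measured macrophage markers were lower as well (median -0.77), with sums between 16.6 and 43.2, and so were the 3 measured mast cell markers (median -1.33). Fibroblast markers had a median of 2.13 and osteoblast markers one of 1.59, with 5 of 6 and 6 of 7 higher. The part of these cells in the levels of ADAM19 and ADAMTSL1 was not tested.

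ADAMTS17, a secreted protease linked to fibrillin and to short stature syndromes, had the highest change of the family in the other direction. It stood at -0.42 in control and -0.47 in HPD defects on day 3, at 0.67 and -0.05 on day 5, and at 0.74 and 0.45 on day 7. Each later array was above both day 3 arrays. Day 7 minus day 3 was 1.04 ± 0.22 (limma, adjusted p = 0.143; 0.0388 to 0.586 over all alternatives), 2.06-fold higher, and day 5 minus day 3 was 0.75 ± 0.22.

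In both treatments at once, ADAM19 and ADAMTSL1 were at least 2-fold lower on day 5 than on day 3 (2 of 16 genes above background on those 4 arrays, against 1.97% of all features) and on day 7 (2 of 15, against 2.57%), and 0 genes of the family were 2-fold higher (against 0.792% and 2.59%). Between days 5 and 7, which share a slide, 0 of 15 were 2-fold apart in both treatments (against 0.36% higher and 0.818% lower). limma called 0 of the 18 genes at an adjusted p of 0.05 in any contrast over time. Unadjusted, 3 of the 18 had p under 0.05 for day 7 minus day 3, namely ADAM19, ADAMTSL1 and ADAMTS17, and the same 3 for day 5 minus day 3, with 0 for day 7 minus day 5. The fit called 1 feature higher and 0 lower for day 7 minus day 3 (0.00494%) and the same numbers for day 5 minus day 3 (0.00494%), with 0 for day 7 minus day 5, so calls were rare for any gene. At an unadjusted p under 0.05 the fit had 10.8% of features higher and 10.1% lower on day 7 than on day 3, 6.32% and 10.1% on day 5 than on day 3, and 4.75% and 3.34% on day 7 than on day 5.

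**Figure D2:**
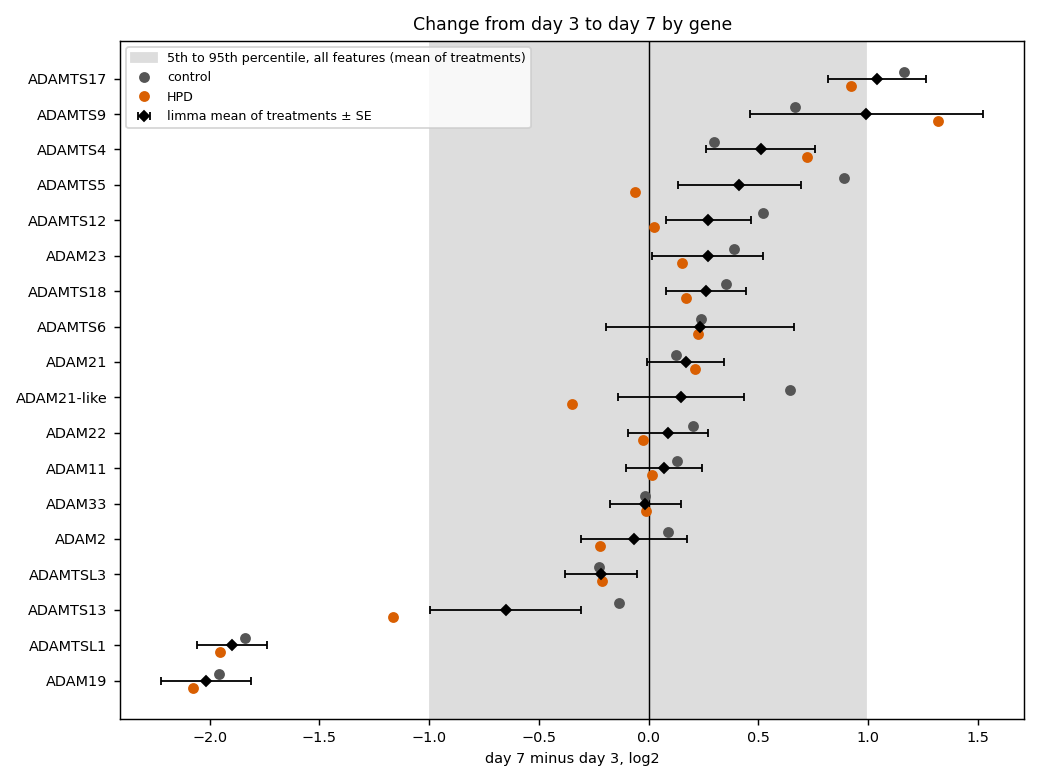
Day 7 minus day 3 in log2 for the 18 genes, ordered by the limma mean of treatments with its SE (diamonds), with the single-array differences of control (grey) and HPD (orange). The grey band holds the middle 90% of all features for the mean of treatments. By that mean, ADAM19 and ADAMTSL1 lie below it near -2, ADAMTS17 and ADAMTS9 at its upper edge, and the others within it.

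Among the secreted proteases, ADAMTS4 and ADAMTS5 are the aggrecanases, which degrade the aggrecan of cartilage and also cut versican. ADAMTS4 stood at 1.21 in control and 1.38 in HPD defects on day 3, at 1.63 and 1.41 on day 5, and at 1.505 and 2.10 on day 7. All 4 later arrays were above both day 3 arrays, and the HPD array of day 7 was the highest. Day 7 minus day 3 was 0.51 ± 0.25 and the HPD effect, the mean of HPD minus control over the days, 0.18 ± 0.20; without the arrays of day 7 the HPD effect was -0.028.

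ADAMTS5, by its brightest probe, was at -1.83 in control and -1.25 in HPD on day 3, at -1.55 and -1.64 on day 5, and at -0.94 and -1.31 on day 7. The order of the treatments turned between day 3, when HPD was higher, and day 7, when it was lower. All 6 probes of the gene showed this. On day 3 HPD minus control was 0.57 by the brightest probe and 0.65 to 0.91 by the tiles, on day 5 -0.09 and -0.95 to -0.35, and on day 7 -0.38 and -0.76 to -0.44. The tiles cover 1 stretch of RNA, hybridised on the same arrays, so they repeat the measurement of each sample and not the experiment. In control defects every probe was higher on day 7 than on day 3, by 0.78 to 1.26, and in HPD defects every probe was lower, with differences of -0.62 to -0.06. The mean over days came to 0.04 ± 0.23 for the brightest probe, and its sign turned to -0.048 under quantile normalization, to -0.098 under median scaling and to -0.13 with the mean of all probes.

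ADAMTS9, a broadly expressed protease that cuts versican, had the largest difference between treatments on a single day among the tested genes chosen by name that were above background on both arrays. It stood at -1.82 in control and -1.81 in HPD defects on day 3, at -0.95 and -2.40 on day 5, and at -1.15 and -0.49 on day 7. The treatments were alike on day 3, HPD was 2.72-fold lower on day 5, and HPD was 1.58-fold higher on day 7. Over days the HPD effect was -0.26 ± 0.43 and became 0.33 without the day 5 arrays. Day 7 minus day 3 was 0.99 ± 0.53 (limma, adjusted p = 0.351; 0.152 to 0.887 over all alternatives), and 1.68 without the control array of day 7 or 0.30 without the HPD array.

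ADAMTS6 acts on the microfibril network. Its levels were -4.23 in control and -3.24 in HPD on day 3, -3.25 and -3.73 on day 5, and -3.99 and -3.01 on day 7. HPD was higher by 0.99 and 0.98 on days 3 and 7 and lower on day 5 (-0.48), with a mean of 0.50 ± 0.35. This gene is dim. Under normexp the differences of days 3 and 7 were 0.34 and 0.28, so their size depended on the background correction.

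ADAMTS12, ADAMTS13 and ADAMTS16 lay at or near background. ADAMTS12, which cuts the cartilage protein COMP, was between -4.89 and -4.36 on all arrays and not well above background on the HPD arrays of days 5 and 7. ADAMTS13, the von Willebrand factor protease, was at -5.18 to -4.94 on 5 arrays and below background, at -6.26, on the HPD array of day 7. Its day 7 minus day 3 difference of -0.65 ± 0.34 was -0.10 without that array and turned to 0.31 under normexp. ADAMTS16 was above background on the control array of day 5 alone, at -4.37. That is 1.52-fold above the lowest clearly detected level of the HPD array of that day. The lowest level well above background was itself higher on the HPD arrays of days 5 and 7 (-4.98 and -4.57) than on their controls (-5.53 and -5.34), and negative control spots varied more there (standard deviation of the linear signal 14.2 and 7.38, against 2.04 and 1.59). The part of this in the dim genes was not tested.

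ADAMTS18, a protease known from eye development, was at -2.49 in control and -1.98 in HPD defects on day 3, at -2.13 and -2.003 on day 5, and at -2.14 and -1.80 on day 7. HPD was higher on each day, by 0.12 to 0.52, with a mean of 0.33 ± 0.15. The 5 tiles differed by more than that on day 5, where HPD minus control ran from -0.04 to 1.23. The highest value came from the tile that starts at base 3526, whose level was -3.04 on the control array of day 5 against -2.18 to -1.73 on the other arrays. The tile shifted by 1 base gave 0.12 on that day. Over the alternatives the day 5 difference of the gene ran from -0.073 to 0.33, so its sign depended on the processing.

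Of the ADAMTS-like genes besides ADAMTSL1, ADAMTSL3 stood at -2.05 in control and -1.82 in HPD on day 3, at -1.91 and -1.85 on day 5, and at -2.28 and -2.03 on day 7. The HPD effect was 0.18 ± 0.13 and day 7 minus day 3 was -0.22 ± 0.16. HPD minus control on day 5 ran from -0.10 to 0.51 over the alternatives. Its 5 tiles, which share 56 bases, spread from -0.24 to 1.34 for HPD minus control on day 3. The spread between near-identical probes was thus wider than the difference of the brightest one.

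**Figure D3:**
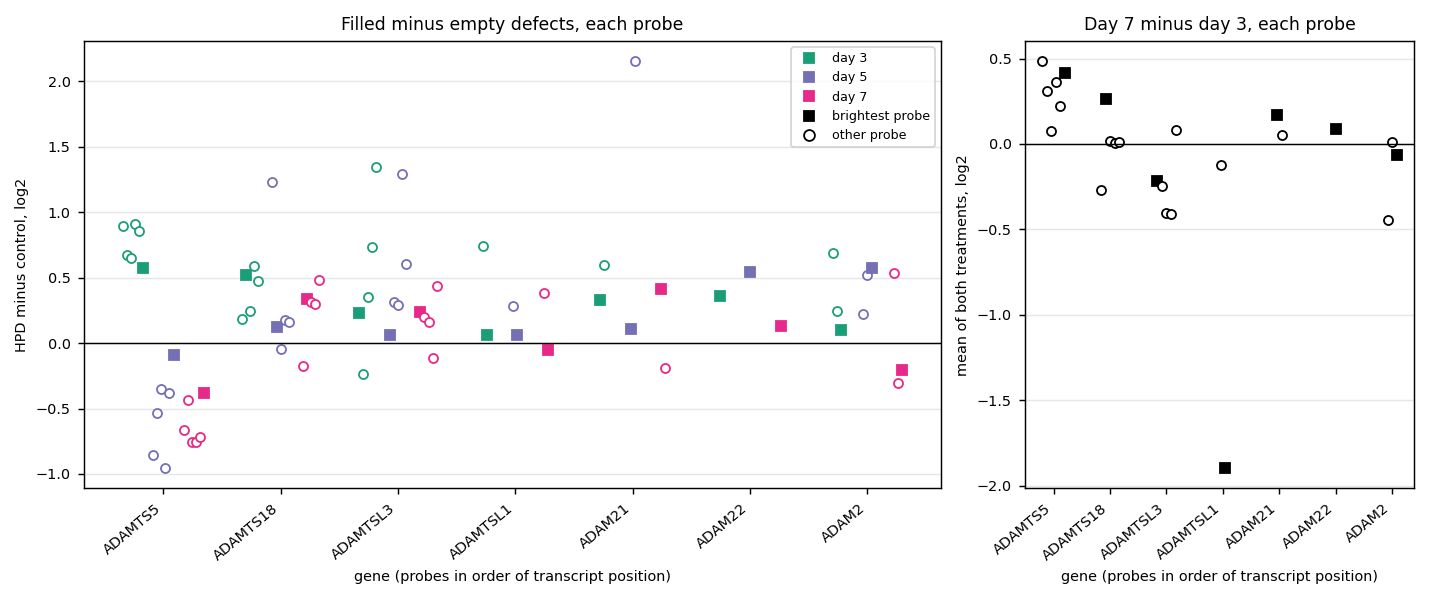
Differences by each probe for genes with several, in log2, leaving out probes not above background on all 6 arrays; at left HPD minus control by day, at right day 7 minus day 3 as the mean of treatments. Squares are the brightest probe and circles the others; the ADAMTS5 probes share a sign on each day, though on day 5 they run from -0.95 to -0.09, and those of ADAMTSL1 are apart over time (-1.90 and -0.12).

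Among the genes chosen by name, the ADAMs of somatic tissue were ADAM19, described above, ADAM33 and ADAM28. ADAM33, known from smooth muscle and fibroblasts of the airway, was at -0.52 in control and -0.24 in HPD defects on day 3, at -0.48 and -0.35 on day 5, and at -0.54 and -0.25 on day 7. All 3 HPD arrays were above all 3 control arrays, by a mean of 0.23 ± 0.13 (limma, adjusted p = 0.573; 0.520 to 0.881 over all alternatives), and it hardly changed with time. It remained higher on all 3 days under each scaling and background alternative, but by as little as 0.0024 on day 5 under median scaling. ADAM28, a lymphocyte protease, was above background on the control array of day 5 alone, at -5.40. ADAM19 itself was higher in HPD by 0.46 on day 3 and 0.34 on day 7 and stood at -0.06 on day 5.

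ADAM11, ADAM22 and ADAM23 are known from the nervous system, lack protease activity and bind LGI proteins. ADAM11 varied between -1.89 and -1.65. ADAM22 was at -2.44 in control and -2.08 in HPD on day 3, at -2.25 and -1.71 on day 5, and at -2.24 and -2.11 on day 7, with all 3 HPD arrays above all 3 controls and a mean of 0.34 ± 0.15. With the mean of its 2 probes this turned to -0.16, since the other probe stood at -2.21 on the control array of day 7 and between -4.79 and -3.77 elsewhere. ADAM23 was at -3.49 in control and -2.89 in HPD on day 3, at -3.00 and -3.22 on day 5, and at -3.11 and -2.74 on day 7, with no fixed order of treatments. Of 6 markers of brain and meninges 3 were measured, with a summed level of 0.77 to 1.03 over the arrays.

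ADAM2 and ADAM21 are ADAMs of male germ cells; ADAM2 is fertilin beta, a sperm surface protein. ADAM2 was at -2.79 in control and -2.69 in HPD defects on day 3, at -3.21 and -2.64 on day 5, and at -2.71 and -2.91 on day 7. ADAM21, by its brightest probe, was at -0.55 and -0.22, -0.31 and -0.20, and -0.42 and -0.01 on the same days. By that probe it was higher in HPD throughout, with a mean of 0.28 ± 0.14, although its day 5 difference was as low as -0.020 over the alternatives. The other probe of ADAM21 gave differences of 0.60, 2.15 and -0.19 on days 3, 5 and 7. The gene described as ADAM21-like was dim. Its level was -4.72 in HPD on day 3, where the control array was below background. With the processing used here this was 1.80-fold above the lowest clearly detected level of that control array. The level of ADAM21-like was then -5.19 and -4.58 on day 5, and -5.00 in control on day 7, where the HPD array was below background. The day 3 difference ran from 0.16 to 0.93 log2 over the alternatives, so its size depended on the processing. The other probes of this gene were below background on all arrays. Of 8 germ cell markers 4 were measured, with sums of 0.83 to 1.12 over the arrays; their part in these levels was not tested.

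Filled and unfilled defects were compared over all 3 days to see what the graft altered. For the HPD effect limma called 0 of the 18 genes and 0 of 20251 features, higher or lower (0%; smallest adjusted p = 0.555), and 0 of the 18 had an unadjusted p under 0.05, where 7.17% of all features were higher and 1.41% lower. HPD was higher on all 3 days for 5 of the 18, ADAM21, ADAM22, ADAM33, ADAMTS18 and ADAMTSL3, and the share of all features with this pattern was 26.4%. It was lower on all 3 days for ADAMTS17 alone, against 11% of all features, at -0.35 ± 0.18. These shares are near the background. The list also changed with the scaling: under median scaling 2 genes were higher throughout, ADAM22 and ADAM33, and 4 lower, ADAMTS12, ADAMTS13, ADAMTS17 and ADAMTSL1. ADAMTS17 was lower throughout under median scaling, normexp, quantile normalization and the mean of probes, and ADAM33 was higher throughout under all of them.

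On single days, where 1 array stands against 1 and no test was made, 0 of 17 genes were 2-fold apart on day 3 (3.57% of all features higher, 2.9% lower). On day 5 ADAMTS9 was 2-fold lower, 1 of 17 (against 1.68%), and 0 were higher (against 4.86%). On day 7 there were 0 of 15 (1.63% higher, 0.844% lower). The median HPD minus control difference of the 18 was 0.18 over days, while that of all features was 0.09. Median scaling moved the median of all features to -0.04 and normexp to -0.0023.

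**Figure D4:**
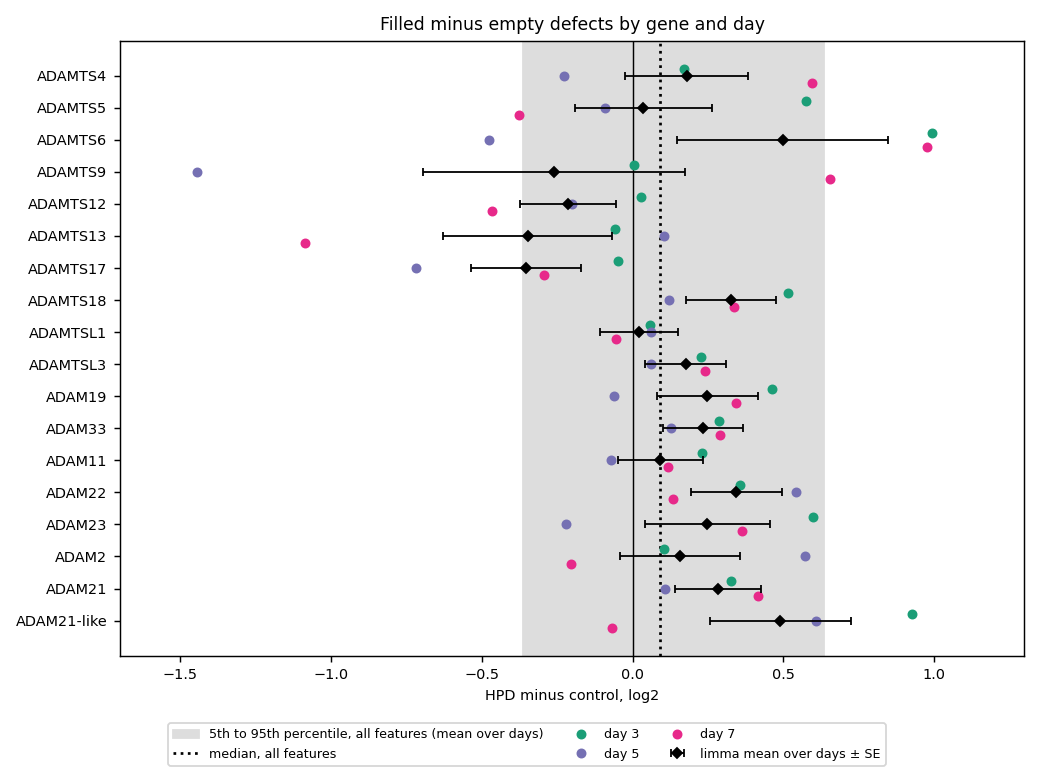
HPD minus control in log2 for the 18 genes by day (coloured points, 1 array against 1) and as the limma mean over days with its SE (diamonds). The grey band holds the middle 90% of all features for the mean over days, and the dotted line is their median (0.09). Single days spread wider over all features, on day 5 from -0.66 to 1.05 for the middle 90%. The day 5 value of ADAMTS9 (-1.45) lies farthest from 0. For most of the 18 genes, ADAMTS5, ADAMTS6 and ADAMTS9 among them, the days fall on both sides of 0.

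Of the 11 family genes described in other words, 10 were tested and ADAM6A was below background on all arrays. ADAM9, meltrin gamma, is a widely expressed membrane protease. It was at -0.75 in control and 0.02 in HPD defects on day 3, at -0.62 and -0.16 on day 5, and at -0.20 and -0.05 on day 7, so that all HPD arrays were above all controls. The HPD effect was 0.46 ± 0.18 (limma, adjusted p = 0.555; 0.481 to 0.874 over all alternatives), and its 3 probes gave 0.40 to 0.46. The 6 macrophage markers measured were also higher over days with HPD, at a median of 0.48, where 62.7% of all features were higher. By day, 4, 6 and 4 of the 6 were higher on days 3, 5 and 7, at medians of 0.55, 1.08 and 0.23. ADAM9 differed by 0.77, 0.47 and 0.15 on those days. The part of these markers in the level of ADAM9 was not tested.

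ADAM10, the main sheddase of Notch and of the amyloid precursor, was at -0.71 in control and -0.50 in HPD on day 3, at -0.47 and -0.75 on day 5, and at -0.69 and -0.46 on day 7. Its 3 probes gave the same signs on each day, positive on days 3 and 7 and negative on day 5, with values within 0.06 of each other, although no difference exceeded 0.32. ADAM12, meltrin alpha, known from muscle and bone cell fusion, was at -1.30 in control and -1.29 in HPD on day 3, at -1.71 and -1.82 on day 5, and at -1.69 and -1.52 on day 7; day 7 minus day 3 was -0.31 ± 0.17. ADAM15 stayed between -2.48 and -2.24.

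ADAMDEC1, decysin, is a secreted member made by macrophages and dendritic cells. It stood at -3.01 in control and -2.45 in HPD on day 3, was not well above background in control on day 5 against -2.39 in HPD, and was at -2.60 and -2.46 on day 7. On day 5 HPD was 8.80-fold above the lowest clearly detected level of the control array, with the processing used here. This value rests on the control array of that day. The HPD effect over days was 1.41 ± 0.73 and ran from 0.30 to 2.05 over all alternatives. Its other 2 probes were below background on all arrays. Single probes of ADAM21, ADAMTS18 and ADAMTSL3 were also low on the control array of day 5, at -3.89, -3.04 and -3.24. ADAMTSL4, a fibrillin-binding protein of the eye, was at -4.05 in control and -3.10 in HPD on day 3, at -4.07 and -3.69 on day 5, and at -3.47 and -3.37 on day 7.

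ADAM6, a sperm gene in rodents, was at -1.96 in control and -0.89 in HPD on day 3, at -2.62 and -2.51 on day 5, and at -3.26 and -1.81 on day 7. HPD was 2.10-fold higher on day 3 and 2.73-fold on day 7, with a mean of 0.88 ± 0.30, and day 7 minus day 3 was -1.11 ± 0.36 (-0.56 under normexp). Higher with HPD on all 3 days were 5 of the 10, ADAM6, ADAM7, ADAM9, ADAMDEC1 and ADAMTSL4 (26.4% of all features), and 0 were lower throughout (11% of all features); 0 were called. ADAM7, an epididymal gene, was at -3.58 and -3.08, -3.81 and -3.43, and -3.96 and -3.58 on the 3 days in turn. ADAM1A, fertilin alpha, ran from -4.40 to -3.39 and ADAMTS15, an aggrecan-cutting protease, from -2.89 to -2.47.

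The genes that ADAM and ADAMTS proteins act on or with were followed as 9 lists, in which 0 genes were called in any contrast. All 9 measured procollagen and procollagen processing genes were higher on day 7 than on day 3, with a median of 1.35, against -0.01 for all features. The procollagens are the substrates of the procollagen N-proteinases ADAMTS2 and ADAMTS14, neither of which was named on the array. COL3A1, the collagen of early repair tissue, was at 8.08 in control and 8.32 in HPD on day 3, at 9.66 and 9.01 on day 5, and at 10.48 and 9.76 on day 7, a difference of 1.92 ± 0.30 (limma, adjusted p = 0.116; 0.0136 to 0.439 over all alternatives). With HPD 8 of the 9 were lower over days, at a median of -0.16, where 62.7% of all features were higher. The days differed: 8 of the 9 were lower on day 5 (median -0.65). On day 3 and on day 7, 5 of the 9 were higher (medians 0.07 and 0.26).

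Of 10 measured proteoglycan and glycoprotein substrates 8 were higher on day 7 than on day 3, at a median of 0.26. LUM, which encodes the small proteoglycan lumican, was at 5.19 in control and 5.45 in HPD on day 3, at 7.23 and 6.57 on day 5, and at 8.07 and 7.19 on day 7, a difference of 2.31 ± 0.33 (limma, adjusted p = 0.116; 0.0123 to 0.439 over all alternatives). ACAN, the aggrecan gene, stayed between -4.57 and -3.63 and VCAN, the versican gene, between 0.08 and 0.73. FN1, fibronectin, was at 6.76 in control and 7.64 in HPD on day 3, at 6.82 and 7.82 on day 5, and at 7.04 and 7.56 on day 7. All 3 HPD arrays were above all controls, by a mean of 0.80 ± 0.16 (limma, adjusted p = 0.555; 0.481 to 0.874 over all alternatives).

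The inhibitors had 4 of 6 genes measured, of which 3 were lower on day 7 than on day 3. TIMP1, a secreted inhibitor of many metalloproteases, was at 5.03 in control and 5.21 in HPD on day 3, at 4.67 and 5.14 on day 5, and at 4.28 and 4.75 on day 7, a difference of -0.60 ± 0.18 over time. TIMP3, the inhibitor of the aggrecanases and of ADAM17, varied between 0.45 and 0.92, TIMP4 between -2.95 and -1.41, and RECK, a membrane inhibitor, was above background on 3 arrays.

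Membrane proteins known to be shed by ADAM17 and ADAM10 had 14 of 21 genes measured, with 4 higher and 10 lower on day 7 than on day 3 (median -0.25). Over days 9 of the 14 were higher with HPD (median 0.18), where 62.7% of all features were higher with a median of 0.09. By day, 11, 11 and 12 of the 14 were higher with HPD on days 3, 5 and 7, at medians of 0.30, 0.37 and 0.25. Of all features 64.5%, 58.5% and 56.7% were higher on those days. TNF, the cytokine for which ADAM17 is named, was higher with HPD on each day, at -0.59 in control and 0.34 in HPD, -1.46 and -0.52, and -1.73 and -0.92 in turn, a mean of 0.89 ± 0.13. VCAM1, a vascular adhesion receptor, was lower on each day, at 1.97 and 0.08, -0.05 and -1.58, and 0.20 and -0.04, a mean of -1.22 ± 0.36. Neither passed the test (limma, adjusted p = 0.555 for both; 0.481 to 0.874 over all alternatives).

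The remaining lists were small. Of 6 measured microfibril genes 5 were higher on day 7 than on day 3 (median 0.29), as were 2 of 3 receptors that clear or bind secreted ADAMTS proteins (median 0.64), 2 of 3 proprotein convertases, which activate the proteases (median 0.51), and the only measured gene for glycosylation of thrombospondin repeats, B3GLCT (0.15). Of 4 measured partners in the maturation of ADAM10 and ADAM17, 1 was higher (median -0.29). With HPD these lists had medians between -0.16 and 0.03.

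**Figure D5:**
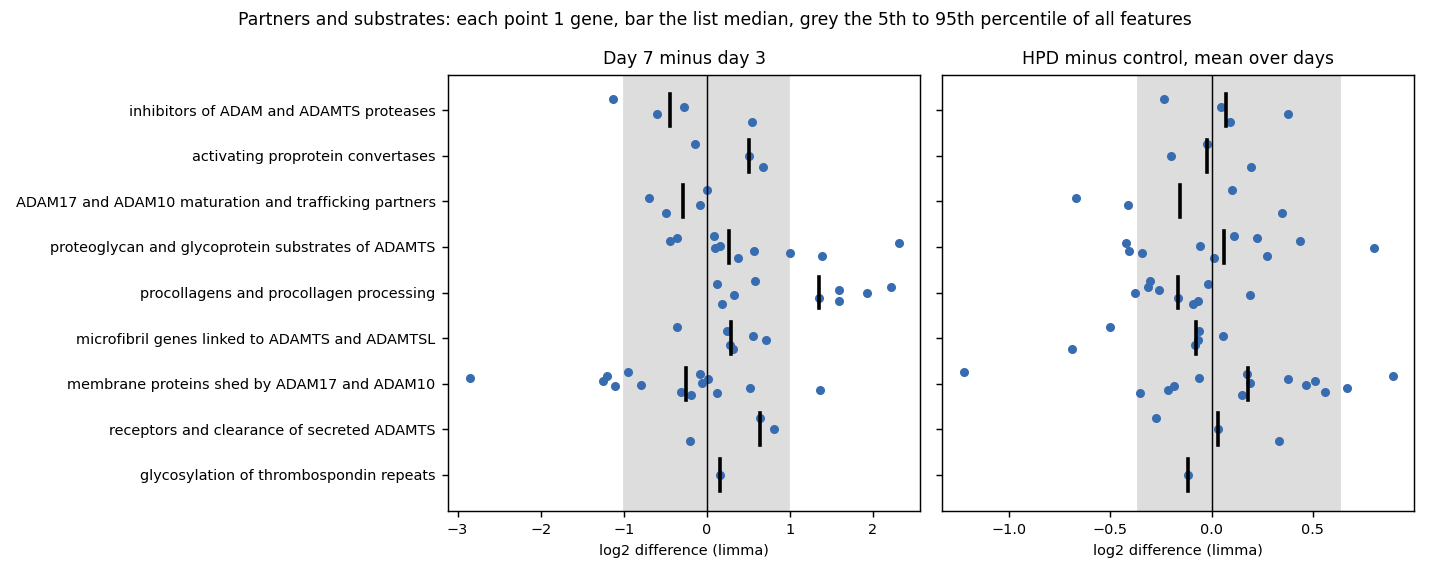
Differences of the partner and substrate genes in log2, day 7 minus day 3 at left and HPD minus control over days at right, with 1 point per gene, a bar at each list's median and a grey band for the middle 90% of all features. The procollagen list lies to the right of 0 over time (median 1.35), and most other genes lie within the band.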

How the data were processed

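Per the labels, total RNA of 6 tissue samples was amplified from 0.2 μg, labelled with Cy3 and hybridised to 1-colour rabbit arrays. The deposited values are spot intensity on a linear scale, which per the file headers came from Agilent Feature Extraction 10.5.1.1 with background subtraction and no step between arrays. Files also hold above-background marks, which the authors deposited as 0 or 1, and probe names.

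Here the values were log2 processed intensity minus the 75th percentile of the array's non-control probes. Outlier spots were left out (41 probes lost) and repeated spots averaged. Genes took the brightest probe. The tested features, 20251 of 23410, exceeded background clearly on 3 or more arrays. Symbols came from the array's columns and, for names only, from a RefSeq table of assembly mOryCun1.1: 22421 probes had 1 symbol, 78 several and 21182 none.

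limma 3.58.1 in R 4.3.3 fitted day and treatment over all 6 arrays (2 residual degrees of freedom), with Benjamini-Hochberg adjustment over all features. Day is the block for the HPD effect. Since each group is 1 array, a p-value reflects no more than the scatter among these 6 arrays. In this fit that scatter is how the HPD difference varies between days. It may be technical or a true difference between days, and the SE and p-value cannot tell these apart. The number of arrays limits the precision. Single days have 1 array per group and were compared by 2-fold counts with no test. In simulated data for day 7 minus day 3 and for the HPD effect, at 20251 features, 100 of 100 features changed by log2 2 and 100 of 100 changed by log2 4 were recovered, with 5 and 7 false calls in all. The simulation gave every feature the same median spread, so it does not show the power for single genes: the change of ADAM19 was -2.02 and was not called. For a gene above background on only 1 array of a day, the fold compares the bright array with the dim one. The dim array was taken at its own level or at its lowest clearly detected level, whichever was higher. That level is no ceiling, so these folds are not strict bounds. ADAMTS12 was at -4.89 on the HPD array of day 5, above the -4.98 of that array, and was not well above background.

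The members, gene lists and markers were chosen with earlier results of these data known. Named genes were those called, the 6 highest and 6 lowest over time, those with the same sign on all 3 days, the 3 highest and 3 lowest on each day, a fixed set of family genes and up to 4 genes per list; 1 gene of the lists is not reported here. Alternatives were normexp background correction (offset 50), quantile and median scaling, other filters, the mean of a gene's probes, a trended prior, models without day or treatment, and leaving out each array. A fit of days 5 and 7 alone, within 1 slide, was chosen after seeing the data.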

Additional observations from a re-analysis of the deposited data

Results flagged for a closer look

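The comparisons below ran in opposite directions in 2 groups, each by at least 0.5 log2, with 1 array on each side; the differences between the groups were not tested. For ADAMTS9, HPD minus control was -1.45 on day 5 and 0.66 on day 7, and day 5 minus day 3 was 0.86 in control and -0.59 in HPD defects. ADAMTS6 had a day 7 minus day 5 difference of -0.73 in control and 0.72 in HPD. For ADAM6 that difference was -0.64 in control and 0.70 in HPD. ADAM1A had an HPD minus control difference of 0.75 on day 3 and -0.51 on day 5.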

How the results depend on the processing

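With 1 array per treatment and day, the fit has 2 residual degrees of freedom, and dim probes depend on the background correction. The labels give no replicate numbers; the fit pairs the treatments by day, and without the day term it also called 0 features for the HPD effect. For the HPD effect 0 features were called under every alternative run. For day 7 minus day 3 the count of 1 called feature became 1030 with normexp, 382 without the treatment term, 9 with a trended prior, 5 with the filter on all 6 arrays, and 0 under quantile normalization or without a filter; leaving out single arrays gave 0 to 246, the highest without the HPD array of day 3. The 0 family genes called became 2 with normexp (ADAMTSL1 at -1.39, ADAMTS17 at 0.89) and 2 without the treatment term (ADAM19 and ADAMTSL1), and 0 with each array left out. For day 5 minus day 3 the count of 1 became 300 with normexp, 18 without the treatment term, 2 with a trended prior, 0 under quantile normalization or without a filter, and 0 to 137 with single arrays left out, while family genes went from 0 to 1 (ADAMTSL1) with normexp and to 1 (ADAMTSL1) without the treatment term. For day 7 minus day 5 the count of 0 became 2 with normexp, 1 with a trended prior and 3 without the treatment term. Features 2-fold apart with normexp numbered 539, 359 and 118 on days 3, 5 and 7. Averaging all probes per gene, 2 family genes were 2-fold apart on day 5 and 1 on day 7, in place of 1 and 0.

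Signs turned for ADAM22 (HPD effect -0.16 with the mean of probes), ADAMTS9 (HPD effect 0.33 without either array of day 5, and -0.72 to 0.33 over single arrays left out), ADAMTS4 (HPD effect -0.028 without either array of day 7, and -0.028 to 0.38 over single arrays left out), ADAMTS13 (day 7 minus day 3 at 0.31 with normexp) and ADAMTS5. The HPD effect of ADAMTS5 was -0.048 under quantile normalization, -0.098 under median scaling, -0.13 with the mean of probes, and -0.23 without either array of day 3 or with days 5 and 7 only, and -0.23 to 0.24 over single arrays left out. Apart from the array left out in the last cases, the causes were not tested. HPD minus control on single days turned for further genes. Among them were ADAMTS18 and ADAMTSL3 on day 5 (-0.073 to 0.33 and -0.10 to 0.51). ADAM2 on day 7 (-0.31 to 0.078) and ADAMTSL1 on day 3 (-0.11 to 0.40) turned too. Of single-gene values under alternatives, 675 kept their direction and side of the threshold or moved by less than the SE of the HPD effect. Another 51 moved by more, 11 newly passed the threshold and 12 turned in the HPD effect or over time.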

Other observations

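Some probes of the family stood apart on 1 array while another probe of the same gene did not; the cases here were chosen after their values were seen, and each lay on a control array. The other probe of ADAM21 was at -3.89 in control on day 5 and between -1.94 and -1.34 on the remaining arrays, while the brightest probe stayed between -0.55 and -0.01. The other probe of ADAM22 was at -2.21 in control on day 7 and between -4.79 and -3.77 elsewhere. For ADAMTSL3, the tile that starts at base 4961 was at -3.24 in control on day 5, where the tile from base 4960 was at -2.24.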
